A study of Homo sapiens with 12 samples.

Results

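Expression of 9 genes of branched-chain amino acid and leucine breakdown, BCAT1, BCAT2, BCKDHA, BCKDHB, DBT, IVD, MCCC1, MCCC2 and AUH, was examined in C4-2 prostate cancer cells treated with PBKi or with DMSO. The genes were a list matched by symbol to the Ensembl identifiers of the count files, which hold 54127 genes, and all 9 were found. Of these, 8 had enough reads to be tested among 14505 genes, and BCKDHA did not. The genes were selected on measured values, namely the PBKi against DMSO differences of these same libraries, so differences between the groups in these genes are given as a description, with no p-value. In PBKi, MCCC2 was at 0.462 of its DMSO level and its partner subunit MCCC1 was 16.5% above its own, while DBT, BCKDHB, BCAT2 and AUH were 15.4% to 22.9% lower.

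C4-2 is an androgen-responsive human prostate cancer line derived from LNCaP cells, and PBKi is the compound HI-TOPK-032, which inhibits the kinase PBK. Both groups were C4-2 cells grown in RPMI medium with serum, treated with DMSO vehicle or with 1 µM PBKi for 6 h, and RNAseq was performed on 6 libraries of each. A single cell line was used, and no source used here says whether the replicates were separate cultures, so p-values below measure the spread between these libraries, which may be technical. In bulk RNA, fewer cells of a kind and less RNA per cell cannot be told apart.

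Leucine, isoleucine and valine lose their amino group to branched-chain aminotransferases, and the resulting keto acids are decarboxylated in mitochondria by the branched-chain keto acid dehydrogenase complex, the committed step of the pathway. Leucine carbon then passes through isovaleryl-CoA dehydrogenase, the biotin-dependent methylcrotonyl-CoA carboxylase and methylglutaconyl-CoA hydratase, and ends as acetyl-CoA and acetoacetate. Inherited loss of these enzymes causes maple syrup urine disease, isovaleric acidaemia and methylcrotonylglycinuria.

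The sequences upstream of the start sites of both carboxylase subunits and of 2 subunits of the keto acid dehydrogenase are shown because the first pair moved in opposite directions and the second pair in the same direction. They are RefSeq promoter windows (table build GRCh38.p14) that matched GRCh37, the build of the count files, at a single place each, and are written 5′ to 3′ on the strand of the gene. Capitals mark matches, on either strand, to the E-box CACGTG, the CCAAT box, the GC box GGGCGG and the NRF-1 site TGCGCA. The MCCC2 run (chr5:70882917-70883112, plus strand) and the BCKDHB run stop 10 bases into annotated exons of other transcripts of the same gene. The MCCC1 run is chr3:182817376-182817625 on the minus strand, the BCKDHB run chr6:80816138-80816373 on the plus strand and the DBT run chr1:100715391-100715640 on the minus strand.
MCCC2: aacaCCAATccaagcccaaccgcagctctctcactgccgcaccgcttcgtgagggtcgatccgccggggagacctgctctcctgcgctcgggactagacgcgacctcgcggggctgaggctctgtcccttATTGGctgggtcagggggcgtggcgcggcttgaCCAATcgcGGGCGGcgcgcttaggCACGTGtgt
MCCC1: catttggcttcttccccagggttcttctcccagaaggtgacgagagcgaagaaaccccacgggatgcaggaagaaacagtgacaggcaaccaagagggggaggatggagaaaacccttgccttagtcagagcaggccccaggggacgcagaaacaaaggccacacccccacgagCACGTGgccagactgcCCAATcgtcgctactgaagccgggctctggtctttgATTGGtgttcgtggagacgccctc
BCKDHB: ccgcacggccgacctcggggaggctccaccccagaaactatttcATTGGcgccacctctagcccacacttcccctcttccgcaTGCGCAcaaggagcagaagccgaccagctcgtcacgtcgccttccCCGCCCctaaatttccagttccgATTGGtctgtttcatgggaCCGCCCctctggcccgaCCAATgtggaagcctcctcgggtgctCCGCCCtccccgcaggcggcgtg
DBT: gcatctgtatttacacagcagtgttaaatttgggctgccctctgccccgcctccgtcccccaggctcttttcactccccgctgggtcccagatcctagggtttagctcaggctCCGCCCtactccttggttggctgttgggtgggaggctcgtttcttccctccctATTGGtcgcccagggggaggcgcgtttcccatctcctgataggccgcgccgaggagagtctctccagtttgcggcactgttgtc

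Windows of 250 bases before the start site were found for 8 of the 9 genes, 14 windows in all, against 35116 windows in the whole table. An E-box lay 63 bases before the start site in MCCC2 and 76 bases before the start site shown for MCCC1. Taking the first window of each gene, only MCCC1 and MCCC2 of the 8 held CACGTG, a motif present in 6.34% of all windows. A CCAAT box was found in 7 of the 8 first windows (32.0% of all windows), a GC box in 6 (42.6%) and an NRF-1 site in 1 (6.89%). The androgen receptor core motif AGAACA (12.4%) and the nuclear receptor motif AAGGTCA (3.44%) were in none of the 8 first windows. These matches describe letters in a window and no factor binding was measured.

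Reads on genes ranged from 9663203 to 28029908 per library in DMSO and from 13122415 to 22817803 in PBKi, so MCCC2 was read 883 to 2768 times per DMSO library and 602 to 1097 times per PBKi library. DMSO replicate 5, sequenced in 3 lanes instead of 4, was the shallowest library. Reads outside annotated genes made up 5.74% to 6.96% of DMSO libraries and 5.94% to 9.30% of PBKi libraries, PBKi replicates 3 and 6 having the most. All 10 luminal prostate markers were expressed, with a summed level of 5272 to 6343 CPM (the read count of a gene scaled to the size of the library) in DMSO and 3262 to 4049 CPM in PBKi. Summed markers of basal cells reached at most 1.73 CPM, of neuroendocrine cells 2.01 CPM, of immune cells 6.38 CPM, of endothelial cells 7.25 CPM and of fibroblasts and muscle 24.2 CPM in any library, and INSM1 was at 0 in all 12. PECAM1, listed as an endothelial marker, matched no identifier of the count files and is not in the endothelial sum. Immune markers summed to 2.77 to 4.71 CPM in DMSO and 5.24 to 6.38 CPM in PBKi. Their part in the results below was not tested.

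In DMSO, levels per length were compared as CPM per kilobase of the union of annotated exons. IVD had 27.9 ± 1.70 CPM per kilobase (SD, n = 6) and MCCC1 27.3 ± 1.37, and their ranges overlapped. DBT followed with 20.1 ± 1.56 CPM per kilobase, then AUH with 13.7 ± 1.46 and BCAT2 with 11.5 ± 1.24, the last pair overlapping. BCKDHB (6.91 ± 0.533 CPM per kilobase), BCAT1 (6.06 ± 1.01) and MCCC2 (4.94 ± 0.237) were lowest, and each overlapped its neighbour in this order. The place of MCCC2 depended on the length used, because its exons together span 20778 bases and its canonical transcript 3624 bases. Per kilobase of canonical transcript, a scale added after the values were seen, MCCC2 had 28.3 CPM and stood between BCAT2 (33.4) and DBT (21.6), while MCCC1 (47.9) and IVD (44) stayed highest.

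BCAT1 and BCAT2 encode the cytosolic and the mitochondrial branched-chain aminotransferase, which start the breakdown of all 3 branched-chain amino acids. BCAT1 (ENSG00000060982, chr12:24962958-25102035, minus strand) ranged from 57.1 to 88.7 CPM in DMSO (median 66.7) and from 65.6 to 94.4 CPM in PBKi (median 81.6). Its groups overlapped, with DMSO replicate 6 above 5 of the 6 PBKi libraries, and its log2 fold change was 0.25 (standard error 0.098). BCAT2 (chr19:49298319-49314286, minus strand) ranged from 46.7 to 63.1 CPM in DMSO (median 50.8) and from 34.4 to 44.9 CPM in PBKi (median 43.3). Every PBKi library was below every DMSO library for BCAT2, with a log2 fold change of -0.35 (standard error 0.082). The BCAT1 to BCAT2 ratio of CPM was 1.35 ± 0.317 (SD, n = 6) in DMSO and 2.04 ± 0.445 in PBKi. The ratios overlapped, from 0.985 to 1.90 in DMSO and from 1.46 to 2.69 in PBKi.

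BCKDHA and BCKDHB encode the alpha and beta subunits of the decarboxylase of the keto acid dehydrogenase, and DBT its transacylase core. BCKDHB (chr6:80816364-81055987, plus strand) had 28.1 ± 2.17 CPM in DMSO and 23.9 ± 1.57 CPM in PBKi (SD, n = 6), a log2 fold change of -0.24 (standard error 0.065). DBT (chr1:100652475-100715390, minus strand), with 233.7 ± 18.2 CPM in DMSO and 188 ± 10.9 CPM in PBKi, had a log2 fold change of -0.31 (standard error 0.059). In both genes the groups overlapped through DMSO replicate 5 alone, at 24.2 CPM for BCKDHB and 200.3 CPM for DBT. The other 5 DMSO libraries had at least 28.1 CPM of BCKDHB, above the PBKi highest of 26.0, and at least 233.3 CPM of DBT, above the PBKi highest of 200.5. The DBT to BCKDHB ratio of CPM was 8.31 ± 0.163 in DMSO and 7.90 ± 0.665 in PBKi (SD, n = 6), and the DMSO range of 8.05 to 8.49 lay inside the PBKi range of 7.20 to 8.92.

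BCKDHA (chr19:41903713-41930907, plus strand) had 0 to 6 counts in DMSO libraries and 1 to 3 in PBKi libraries, too few to compare. A second protein-coding gene annotated on the same strand, ENSG00000255730, covers 1660 of the 2251 exon bases of BCKDHA (73.7%) and had 0 counts in all libraries. The counting used by the authors sets aside reads that fall on more than 1 gene, and such ambiguous reads were 3.87% to 4.10% of those counted in DMSO and 4.16% to 4.35% in PBKi. How many of them came from BCKDHA was not tested, and its counts give no measure of its expression here.

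IVD, isovaleryl-CoA dehydrogenase (chr15:40697686-40728146, plus strand), had 191 ± 11.6 CPM in DMSO and 199.5 ± 7.69 CPM in PBKi (SD, n = 6). Its libraries spanned 177.4 to 208.8 CPM in DMSO and 185.9 to 206.7 CPM in PBKi, so the PBKi range lay within the DMSO range, and the log2 fold change was 0.06 (standard error 0.050).

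MCCC1 and MCCC2 encode the alpha subunit, which carries biotin, and the beta subunit of methylcrotonyl-CoA carboxylase. MCCC2 (ENSG00000131844, chr5:70875358-70954533, plus strand) ranged from 95.5 to 108.8 CPM in DMSO (median 102.3) and from 37.6 to 54.2 CPM in PBKi (median 48.5). Every PBKi library was below every DMSO library, PBKi replicate 3 was the lowest of all, and the means were 102.6 ± 4.92 CPM and 47.5 ± 5.89 CPM (SD, n = 6). The log2 fold change of -1.11 (standard error 0.073) amounts to 53.8% less and was the 55th lowest log2 fold change among the 14505 genes tested. The coefficient of variation of MCCC2 between DMSO libraries was 4.80%. No other annotated gene shares exon bases with MCCC2.

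MCCC1 (chr3:182733006-182833863, minus strand) ranged from 107.2 to 125.3 CPM in DMSO (median 117.6) and from 128.9 to 145.4 CPM in PBKi (median 137.2). Here every PBKi library was above every DMSO library, with a log2 fold change of 0.22 (standard error 0.048). The subunits of this carboxylase thus moved in opposite directions in the same libraries. The MCCC2 to MCCC1 ratio of CPM, a measure unaffected by library scaling, was 0.874 ± 0.041 in DMSO and 0.347 ± 0.044 in PBKi (SD, n = 6). It lay between 0.829 and 0.923 in the DMSO libraries and between 0.270 and 0.388 in the PBKi libraries, with PBKi replicate 3 the lowest.

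**Figure D1:**
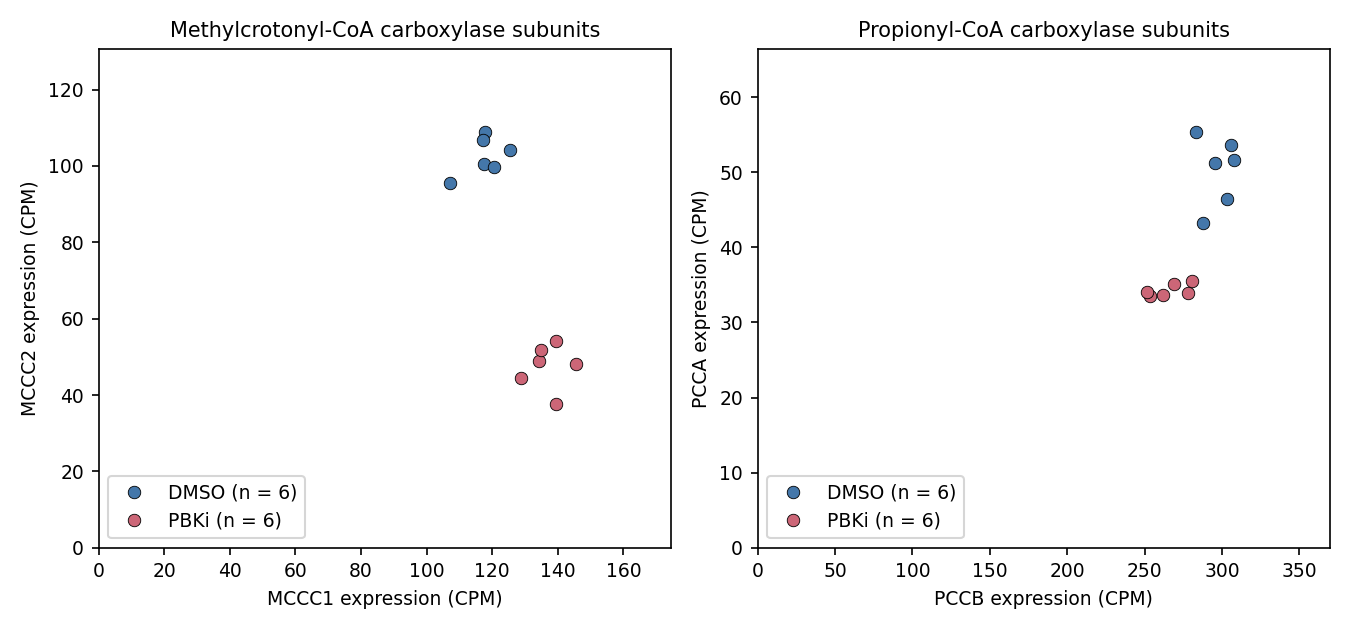
Expression (CPM) of 1 subunit against the other in each of 12 libraries, 6 DMSO and 6 PBKi, for methylcrotonyl-CoA carboxylase (left, MCCC1 on the x axis and MCCC2 on the y axis) and propionyl-CoA carboxylase (right, PCCB and PCCA); all axes start at 0. PBKi libraries sit lower and further right for MCCC2 and MCCC1, at 37.6 to 54.2 CPM of MCCC2 against 95.5 to 108.8 CPM in DMSO, whereas for PCCA and PCCB they sit lower and further left.

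AUH, which hydrates methylglutaconyl-CoA and also binds RNA (chr9:93976097-94124200, minus strand), had 31.1 ± 3.30 CPM in DMSO and 24.1 ± 1.12 CPM in PBKi (SD, n = 6). The PBKi libraries spanned 22.0 to 25.2 CPM, and 5 of the DMSO libraries 30.9 to 34.2 CPM. DMSO replicate 5, at 24.8 CPM, was again the library in which the groups overlapped, and the log2 fold change was -0.38 (standard error 0.070).

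**Figure D2:**
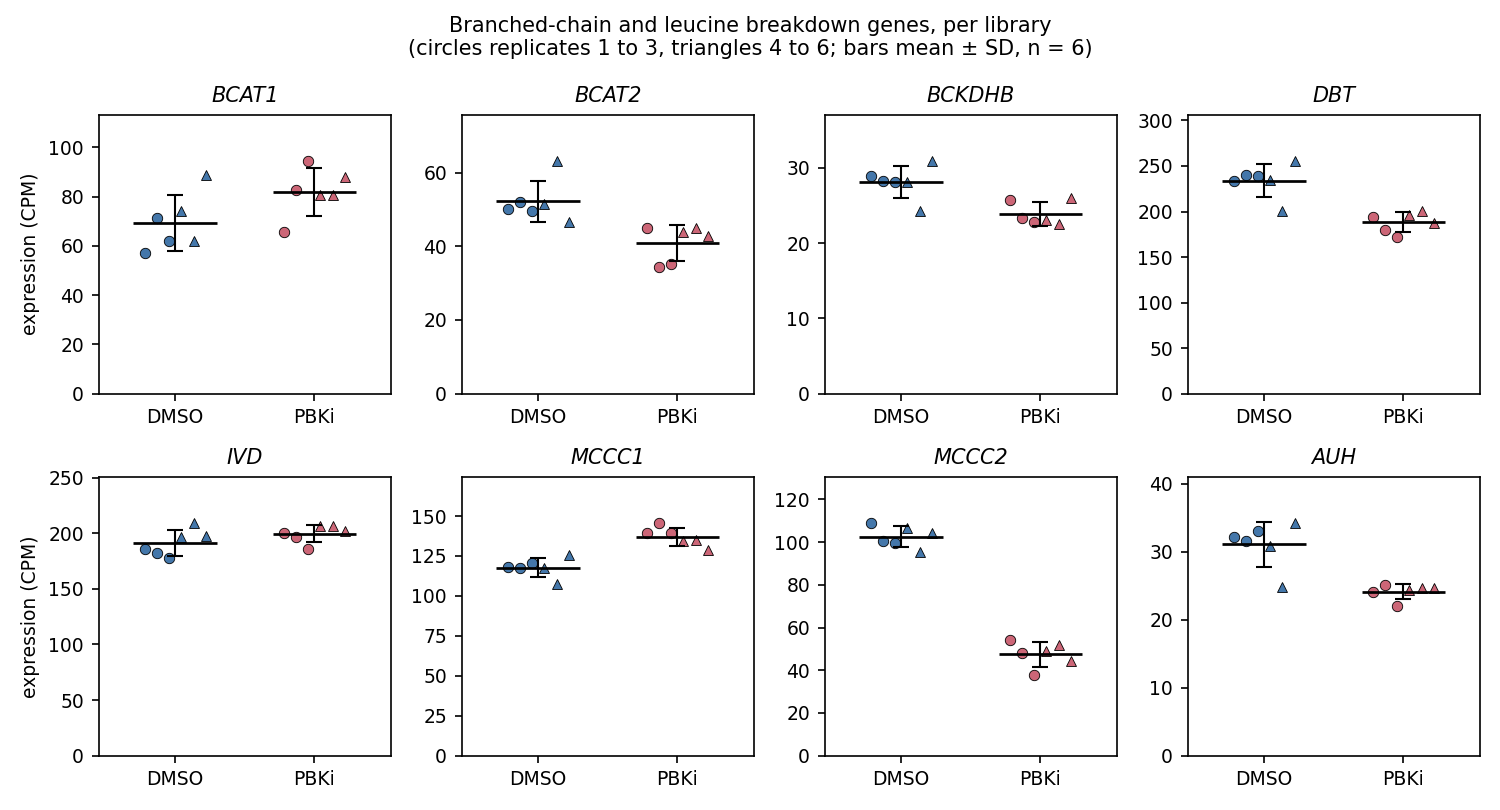
Expression (CPM, y axes from 0) of the 8 measured branched-chain and leucine breakdown genes in each DMSO (blue) and PBKi (red) library, with circles for replicates 1 to 3, triangles for replicates 4 to 6 and bars for the mean ± SD (n = 6). MCCC2 and BCAT2 are lower and MCCC1 higher in every PBKi library than in any DMSO library, and the single low triangle among DMSO libraries of BCKDHB, DBT and AUH is replicate 5.

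As a description of where these genes stood against the threshold used for all genes, an adjusted p under 0.05 in the quasi-likelihood test of edgeR, 2 of the 8 lay past it as higher (BCAT1 and MCCC1) and 5 lower (BCAT2, BCKDHB, DBT, MCCC2 and AUH), beside 20.1% of all genes called higher and 21.5% called lower. Without overlap between the groups, 1 was higher and 2 were lower, beside 10.5% and 9.68% of all genes. The median log2 fold change of the 8 genes was -0.28, beside -0.012 over all genes tested. These counts follow from how the genes were selected, test nothing about them and are not evidence about the pathway. BCAT1 lay close to the threshold. Left out in turn, each of DMSO replicates 1, 2, 3 and 5 and of PBKi replicates 2 to 6 took it to the other side, at log2 fold changes of 0.20 to 0.27.

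Earlier results had shown replicates 1 to 3 to stand apart from replicates 4 to 6, so PBKi was also compared with DMSO within each set. MCCC2 had a log2 fold change of -1.15 in replicates 1 to 3 and -1.07 in replicates 4 to 6. Differences within a set are parts of those the genes were selected on, so their signs are no separate evidence, and only the interaction of treatment with replicate set is independent of the selection. This interaction was called for 0 of the 8 genes by edgeR's quasi-likelihood test and for 0 at an unadjusted p under 0.05, beside 0% and 4.83% of all genes. For MCCC2 the interaction was 0.08 on the log2 scale (edgeR adjusted p = 0.976), and DESeq2 and limma-voom also called 0 of the 8. The widest gap was in BCAT1, with 0.38 in replicates 1 to 3 and 0.16 in replicates 4 to 6 (adjusted p = 0.928 from the same test). A p that misses the threshold does not show that the sets were alike.

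**Figure D3:**
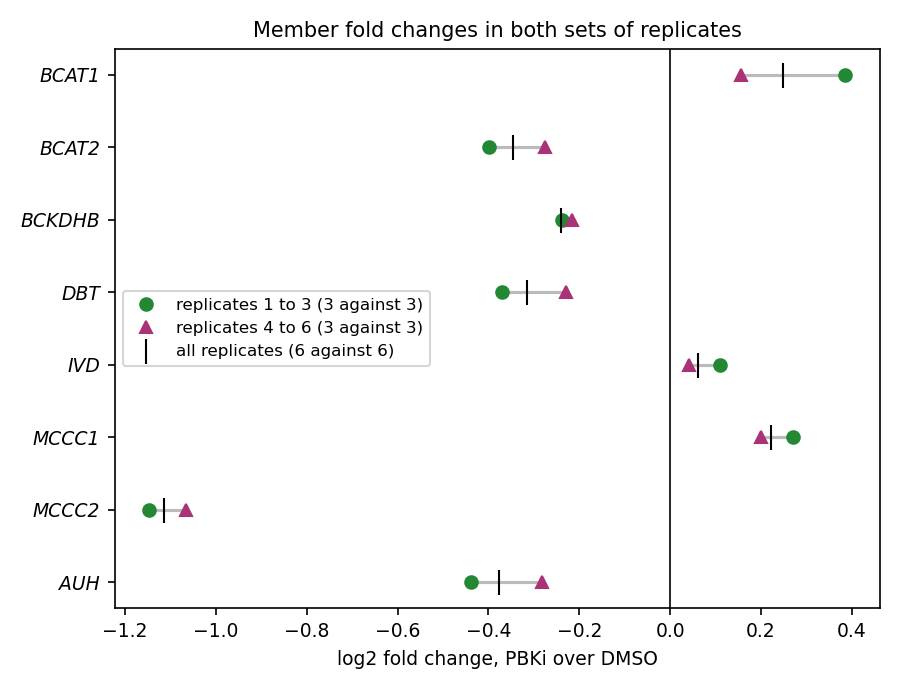
Log2 fold change of PBKi over DMSO (x axis) for each of 8 genes in replicates 1 to 3 (green circles, 3 against 3), in replicates 4 to 6 (purple triangles, 3 against 3) and in all replicates (black ticks, 6 against 6). MCCC2 stands apart from the rest at -1.15 and -1.07, and the widest gap between the sets is in BCAT1, at 0.38 and 0.16.

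The level itself was also compared between the sets, with treatment held in the fit. Of the 8 genes, 0 were called between replicates 4 to 6 and replicates 1 to 3, beside 17.0% of all genes called by edgeR's quasi-likelihood test. IVD came nearest, 0.11 higher on the log2 scale in replicates 4 to 6 (adjusted p = 0.0586 from that test, and 0.0204 from DESeq2), and it was the 1 gene with an unadjusted p under 0.05. MCCC2 differed by 0.03 on the log2 scale (standard error 0.069).

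The 5 genes whose log2 CPM over the 12 libraries was most like that of MCCC2 were IPO5, NAP1L1, KLK3, SLC39A8 and CHPT1, with Pearson's r of 0.989 to 0.995. All 12 points share the split into treatment groups and the depth of their library. Taken over deviations from the group means, r was 0.886 for IPO5, 0.900 for NAP1L1, 0.942 for KLK3, 0.826 for SLC39A8 and 0.857 for CHPT1. The 5 genes were picked for a high r over these same libraries, so these values are no independent check of likeness. Within DMSO alone, r was 0.392 (SLC39A8) to 0.887 (NAP1L1), and within PBKi alone 0.883 (CHPT1) to 0.968 (KLK3). KLK3, which encodes prostate-specific antigen, had 2959 ± 213.6 CPM in DMSO and 1131 ± 241 CPM in PBKi (SD, n = 6). Its log2 fold change was -1.39, beside -0.43 for IPO5, a nuclear import receptor, and -0.82 for NAP1L1, a histone chaperone. Among the breakdown genes, r with MCCC2 over the 12 libraries was 0.909 for DBT, 0.877 for AUH and -0.83 for MCCC1, and over deviations it was 0.626, 0.465 and 0.177.

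Around this set lies a list of 19 other genes of branched-chain and propionyl-CoA breakdown, all 19 of them tested. In PBKi, 7 fell and 0 rose at an adjusted p under 0.05, and 12 did not pass, beside 21.5% of all genes called lower and 20.1% called higher, with a median log2 fold change of -0.13. DESeq2, and edgeR at an unadjusted p under 0.05, each gave 1 rise, and limma-voom gave 0.

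The fall with the largest size was in PCCA, which encodes the biotin-carrying alpha subunit of propionyl-CoA carboxylase, from 43.2 to 55.3 CPM in DMSO to 33.6 to 35.6 CPM in PBKi. The groups did not overlap, and the log2 fold change was -0.55 (standard error 0.060, edgeR adjusted p = 1.45e-06). PCCB, the beta subunit, named here as the partner of PCCA after its values were seen, fell from 297.3 ± 10.2 CPM to 265.6 ± 12.1 CPM (SD, n = 6, edgeR adjusted p = 0.00966). Whether counting used strand is not given in the sources used here, and 22.2% of PCCB exon bases lie opposite those of STAG1. The PCCA to PCCB ratio of CPM went from 0.150 to 0.195 in DMSO libraries to 0.122 to 0.135 in PBKi libraries.

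ECHS1, the short-chain enoyl-CoA hydratase of valine and isoleucine breakdown, fell from 411.5 ± 25.7 CPM to 318.5 ± 21.7 CPM (SD, n = 6) without overlap. Its log2 fold change was -0.37 (standard error 0.057, edgeR adjusted p = 6.00e-05). ACAD8, isobutyryl-CoA dehydrogenase of the valine branch, fell by 0.30 on the log2 scale (edgeR adjusted p = 0.00216). ALDH6A1, methylmalonate semialdehyde dehydrogenase of the same branch, fell by 0.26 (edgeR adjusted p = 0.00567). In both genes the DMSO and PBKi ranges overlapped.

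DLD, the dihydrolipoamide dehydrogenase that the keto acid dehydrogenase shares with the pyruvate and oxoglutarate complexes, went from 427 ± 25.2 CPM to 388 ± 12.4 CPM (SD, n = 6). Its log2 fold change was -0.14 (standard error 0.050, edgeR adjusted p = 0.0325), and the call was lost in 11 of the 12 fits that left out 1 library, the exception being without DMSO replicate 5. The kinase and phosphatase that switch the complex off and on did not pass this test. BCKDK, the kinase, had 66.2 ± 6.99 CPM in DMSO and 58.8 ± 4.05 CPM in PBKi (edgeR adjusted p = 0.0600), and PPM1K, the phosphatase, 22.3 ± 1.92 CPM and 20.6 ± 1.10 CPM (edgeR adjusted p = 0.181). BCKDK passed with the replicate set as a covariate (edgeR adjusted p = 0.0183) and without DMSO replicate 3 (edgeR adjusted p = 0.0295).

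**Figure D4:**
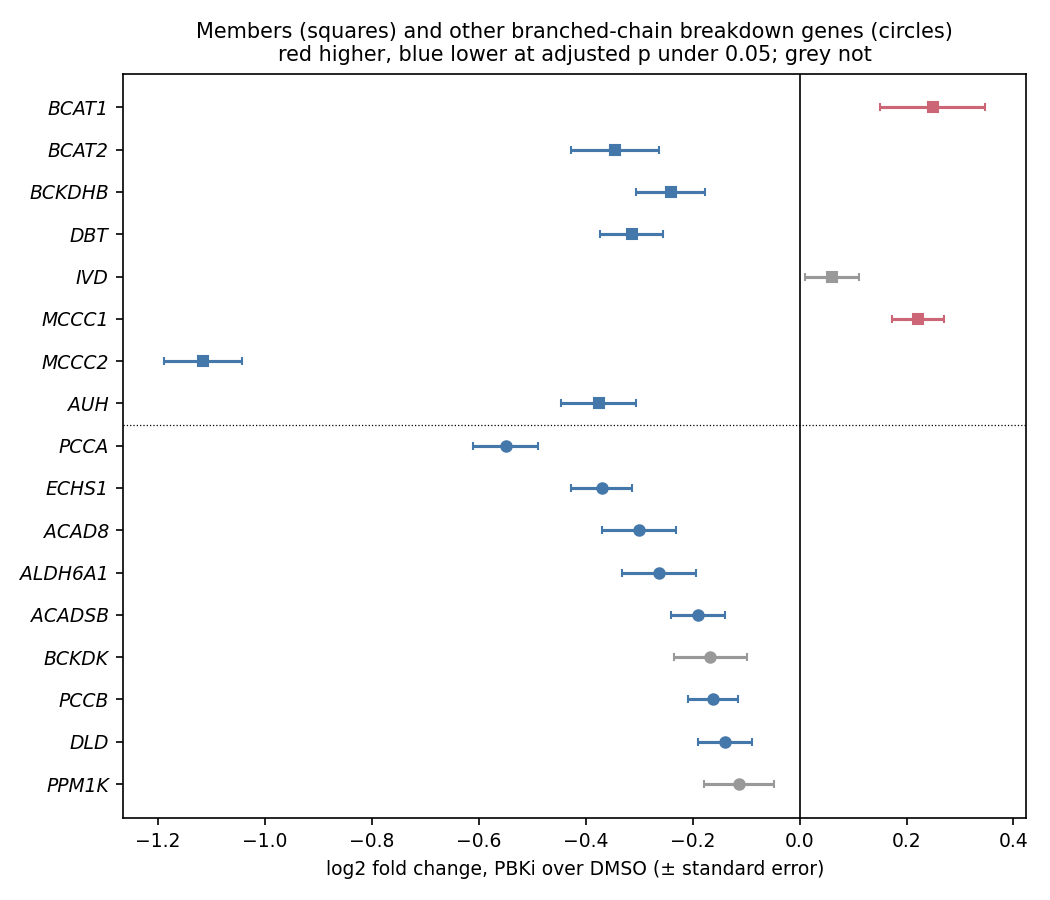
Log2 fold change of PBKi over DMSO (x axis, ± standard error, 6 libraries each) for the 8 measured breakdown genes (squares) and, of the 19 other genes of branched-chain breakdown, the 7 called and the regulators BCKDK and PPM1K (circles), red where called higher, blue where called lower and grey where not called at an adjusted p under 0.05. MCCC2 at -1.11 lies furthest left, PCCA at -0.55 is next, and BCAT1 and MCCC1 are the genes called higher.

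Among these 19 genes, 5 differed between replicates 4 to 6 and replicates 1 to 3 with treatment in the fit, by edgeR's quasi-likelihood test, beside 17.0% of all genes. ALDH6A1 was 0.20 higher on the log2 scale in replicates 4 to 6 (adjusted p = 0.00942), and MMADHC (-0.20), MCEE (-0.33), ACAD8 (-0.17) and MMAB (-0.16) were lower. The interaction with treatment was called for 0 of the 19 by the same test, and 0 had an unadjusted p under 0.05.

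Carriers and sensors of leucine formed another list of 12 genes, of which 11 were tested. In PBKi, 4 rose, 4 fell and 3 did not pass, beside 20.1% of all genes called higher and 21.5% called lower, with a median log2 fold change of 0.03. SLC6A15 was at or near 0 counts and was not tested. SLC3A2, the heavy chain shared by several amino acid exchangers, rose from 249.6 to 295.4 CPM in DMSO to 412.7 to 495.1 CPM in PBKi, a log2 fold change of 0.74 (standard error 0.058, edgeR adjusted p = 2.66e-08). SLC7A5, the light chain that pairs with it in the main leucine exchanger, was named outside the rule for naming genes. It had 422 ± 76.8 CPM in DMSO and 425 ± 25.5 CPM in PBKi (SD, n = 6, edgeR adjusted p = 0.947). SLC7A8, a second light chain, rose by 0.22 on the log2 scale (edgeR adjusted p = 0.00484). SLC25A44, the mitochondrial carrier of branched-chain amino acids, rose by 0.18 (edgeR adjusted p = 0.00692). SLC43A1, a carrier that works without the heavy chain, fell from 193.6 ± 19.6 CPM to 154.4 ± 7.31 CPM (SD, n = 6) without overlap (edgeR adjusted p = 0.000462).

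The sestrins moved apart. SESN2, which binds leucine and restrains mTORC1 when leucine is low, rose from 41.1 to 56.2 CPM in DMSO to 66.3 to 87.4 CPM in PBKi, a log2 fold change of 0.67 (standard error 0.082, edgeR adjusted p = 5.15e-06). SESN3 fell from 245 ± 45.5 CPM to 177 ± 29.5 CPM (SD, n = 6, edgeR adjusted p = 0.00371), with overlapping groups. It was also 0.39 higher on the log2 scale in replicates 4 to 6 than in replicates 1 to 3 (edgeR adjusted p = 0.00168), and SLC7A5 0.22 higher (edgeR adjusted p = 0.0351), the 2 genes of this list called between the sets. SESN1 fell by 0.30 on the log2 scale (edgeR adjusted p = 0.00191). LARS1, the cytosolic leucyl-tRNA synthetase, fell from 348 ± 17.0 CPM to 303 ± 7.64 CPM (SD, n = 6) without overlap (edgeR adjusted p = 0.00232).

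**Figure D5:**
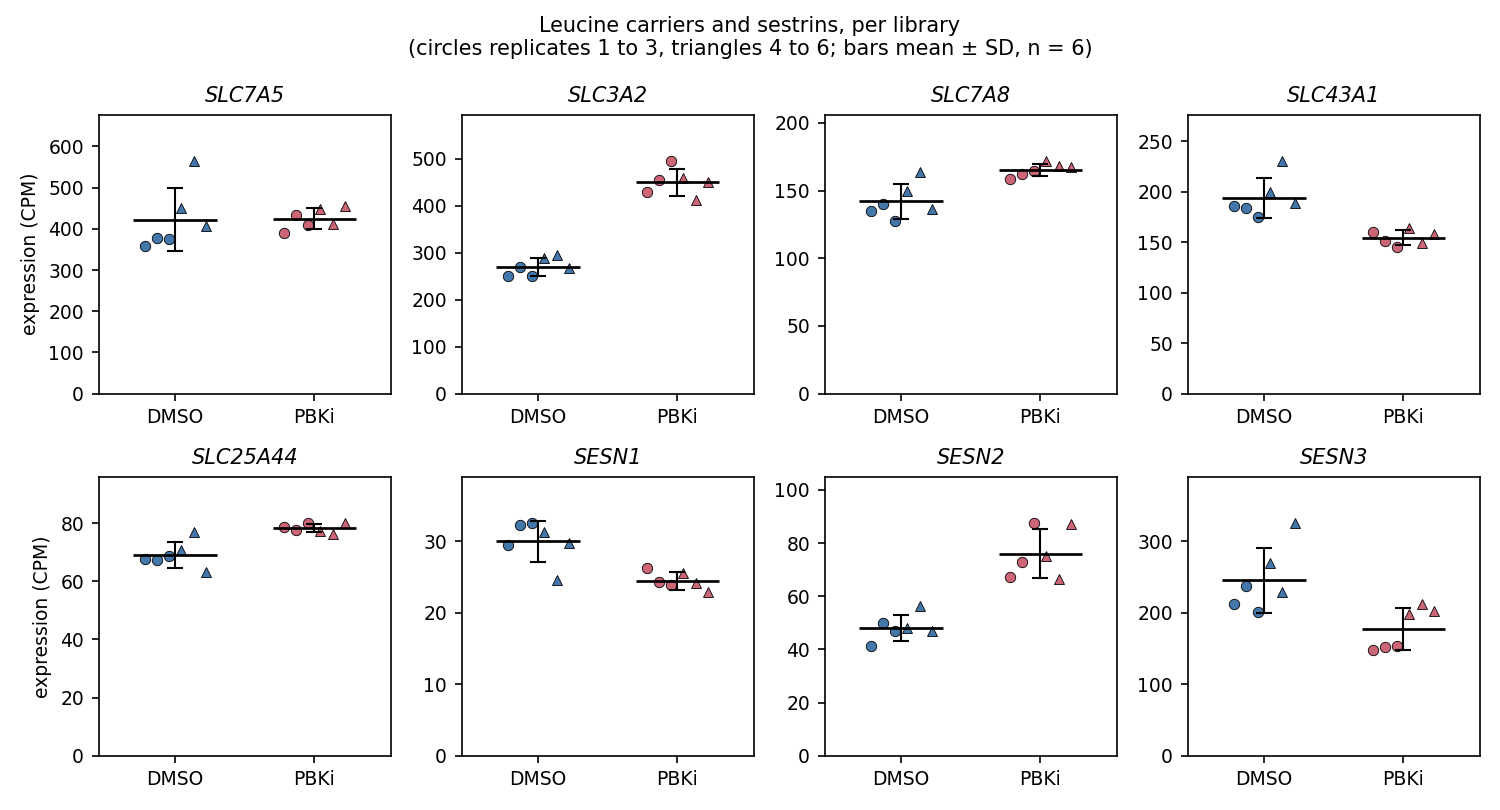
Expression (CPM, y axes from 0) of 5 leucine carriers or their heavy chain and of 3 sestrins in each DMSO (blue) and PBKi (red) library, with circles for replicates 1 to 3, triangles for replicates 4 to 6 and bars for the mean ± SD (n = 6). SLC3A2 and SESN2 are higher, and SLC43A1 lower, in every PBKi library than in any DMSO library, while the PBKi libraries of SLC7A5 lie within its DMSO range.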

How the data were processed

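The authors aligned single-end reads of C4-2 libraries to GRCh37 with TopHat2 2.0.4 and counted reads per gene with HTSeq 0.5.3p9, and they deposited raw counts for every lane, with no normalisation. The study's methods name an mRNA library kit and its labels name flow-sorted cells and another RNA kit than the methods do. Whether the counting used strand is not given in the sources used here. Counts were summed over lanes, since lanes of a library agreed within sampling noise (chi-square over its degrees of freedom 0.993 to 1.02, against 4.11 to 25.2 between libraries of a group). The 5 entries of each file that name no gene were left out of library sizes; reads in no gene made up 5.74% to 9.30% of those counted and ambiguous reads 3.87% to 4.35%. Groups and replicate numbers came from the labels.

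Genes reaching 10 counts in 6 or more libraries were kept (14505 of 54127). PBKi was compared with DMSO by edgeR 4.0.16 (R 4.3.3) with TMM factors and the quasi-likelihood test without covariates, with Benjamini-Hochberg adjustment over all genes at 0.05. CPM values use TMM-scaled library sizes. Symbols, coordinates and exon lengths came from GENCODE 44 mapped to GRCh37, a newer annotation than that of the authors, and matched 47098 identifiers; promoter windows came from RefSeq. The script was tested on simulated counts. The members and the other gene lists were chosen with earlier results of these data known. Besides the 9 members, the rule named up to 4 genes per list and direction with the largest change among those called. It also named BCKDK, PPM1K and DLD, and the 5 genes most like MCCC2. PCCB, SLC7A5, PDHA1, DLAT, PDHX and DLST were named outside this rule, as partners of genes it named. MMADHC, MCEE and MMAB were added for their difference between the replicate sets, and SLC6A15 and ECHDC1 for their low counts. These additions were not set beforehand. Alternatives were DESeq2 1.42.0, limma-voom (limma 3.58.1), RLE factors, other filters, lanes 6 to 8 only, a threshold of 0.01, a replicate block, a covariate for replicates 1 to 3 against 4 to 6, each set alone, other transcript lengths and leaving out each library. Leaving out PBKi replicates 3 and 6 together and the canonical transcript length were added after the data were seen. Libraries of 9663203 to 28029908 reads on genes set the counting error, and standard errors also hold the spread between libraries. Some values of the lists are not reported here, and the other experiments of the study were not analysed here.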

Additional observations from a re-analysis of the deposited data

Results flagged for a closer look

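Each value below lay further from the other 5 libraries of its group than the 95% critical value of Dixon's test for 6 values. Of 62 groups of values examined, 4 held such a library (6.45%), and chance alone gives about 1 in 20. DMSO replicate 5, the library with the fewest reads, had 63.1 CPM of BCAT2, where the other DMSO libraries had 46.7 to 51.9 CPM. The same library had 24.8 CPM of AUH, from 229 counts, where the others had 30.9 to 34.2 CPM. PBKi replicate 3, the library with the highest share of reads outside genes, had 22.0 CPM of AUH, where the others had 24.0 to 25.2 CPM. PBKi replicate 1 had 60.5 CPM of HLCS, which attaches biotin to the carboxylases, where the others had 70.9 to 74.9 CPM.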

How the results depend on the processing

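The log2 fold change of MCCC2 stayed between -1.15 and -1.003 over 23 alternatives. Over the 8 breakdown genes, whose directions the selection fixed, 0 values changed sign and 16 moved to the other side of the threshold. Counts of these genes called in the fits that follow also stem from the selection and are no measure of robustness. The shares of all genes called higher or lower in PBKi in those fits are not given here. Replicates 4 to 6 alone (3 against 3) called 0 breakdown genes higher and 1 lower (MCCC2), 3 of the other breakdown genes lower, 2 uptake and sensing genes higher and 2 lower, and 2 related enzymes higher and 5 lower. Leaving out PBKi replicates 3 and 6 together, chosen after seeing the data, called 1 breakdown gene higher, 1 other breakdown gene higher and 4 lower, and 2 related enzymes higher and 9 lower. An adjusted p under 0.01 left 1 breakdown gene and 2 related enzymes higher, and no filter on low counts left 2 related enzymes higher. Of the other breakdown genes, 1 was called higher by DESeq2, with the CPM filter, with replicates 1 to 3 alone and with the replicate set as a covariate, a fit that called 11 of them lower. DESeq2 called 1 breakdown gene (IVD) between the replicate sets. For the interaction of treatment with replicate set, edgeR without the filter called 32 of all genes. The cause of these changes was not tested.

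Leaving out each library in turn gave 1 to 2 breakdown genes higher and 5 in each fit lower, counts that again follow from the selection. It gave 0 to 1 other breakdown genes higher and 6 to 9 lower, and 2 to 6 related enzymes higher and 11 to 14 lower. Without each of DMSO replicates 1, 2, 3 and 5 and PBKi replicates 2 to 6, 1 breakdown gene instead of 2 was higher. Same-numbered DMSO and PBKi libraries deviated together with correlations of 0.0887 to 0.299 (mean 0.199), beside a mean of -0.040 over the other pairs. In each group, 4 of 6 libraries correlated best with their own number. Pair 5 lay under 0.1, and the main fit did not pair the libraries. Its p-values therefore leave out any pairing by number, and whether the numbers pair the libraries was not settled. The replicate block called 3485 genes higher and 3803 lower, against 2921 and 3125, with 2 breakdown genes higher and 5 lower and, of the other breakdown genes, 1 higher and 9 lower, BCKDK among them (adjusted p = 0.0124). Too few reads were counted to test SLC6A15 (0 to 1 counts per library) and ECHDC1 (2 to 13).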

Other observations

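A list of 32 enzymes and carriers related to this pathway, 30 of them tested, was read in the same comparison. ACACA, a biotin carboxylase on this list, matched no identifier of the count files and was not measured. In PBKi, 14 fell, 4 rose and 12 did not pass edgeR's quasi-likelihood test, beside 21.5% of all genes called lower and 20.1% called higher, with a median log2 fold change of -0.14. The structural subunits of the pyruvate dehydrogenase complex, built like the keto acid dehydrogenase, each fell without overlap between the groups. PDHB fell by 0.30, PDHA1 by 0.28, DLAT by 0.28 and PDHX by 0.24 on the log2 scale. The edgeR adjusted p was 8.64e-05 for DLAT and 0.000398 or less for the others. PDHA1, DLAT and PDHX were named as partners of PDHB, outside the rule for naming genes. Of PDHA1 exon bases 19.3% lie opposite those of MAP3K15, and of DLAT exon bases 13.3% opposite those of PIH1D2. Whether counting used strand is not given, and any effect of these overlaps was not tested. OGDH, the decarboxylase of the oxoglutarate complex, rose instead, from 282.9 ± 34.7 CPM to 374 ± 19.6 CPM (SD, n = 6, edgeR adjusted p = 0.000195). The transacylase of that complex, DLST, fell by 0.11 (edgeR adjusted p = 0.0372).

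Among other aminotransferases, OAT fell from 52.2 ± 5.19 CPM to 33.2 ± 3.49 CPM (SD, n = 6, edgeR adjusted p = 3.89e-06) and GPT2 from 218.1 ± 24.5 CPM to 155.8 ± 15.8 CPM (edgeR adjusted p = 9.92e-05). GCDH, the glutaryl-CoA dehydrogenase of lysine breakdown, fell by 0.37 on the log2 scale (edgeR adjusted p = 0.000664). HLCS, the ligase that attaches biotin to carboxylases including MCCC1 and PCCA, rose by 0.44 (standard error 0.074, edgeR adjusted p = 0.000139), and 12.2% of its exon bases are shared with SIM2. HADHB rose by 0.14 (edgeR adjusted p = 0.0348) and ACADVL by 0.12 (edgeR adjusted p = 0.0469). HADHB lost the call without each of DMSO replicates 2 and 4 and PBKi replicates 2, 3 and 4, at adjusted p up to 0.0635. ACADVL lost it without each of DMSO replicates 1 and 3 and PBKi replicates 1, 2 and 4, at adjusted p up to 0.103, and both lost it with no filter on low counts.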
